A study of Danio rerio with 2 samples.

Results

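The genes described here are 7 inflammatory cytokines and chemokines of the zebrafish, il1b, tnfa, tnfb, il6, tnfsf18, cxcl8a and cxcl18b, taken by symbol from the 25109 features of the deposited single-cell count matrices. Each of the 7 symbols matched 1 feature: il1b is ENSDARG00000098700, tnfb is ENSDARG00000013598, tnfsf18 is ENSDARG00000111698, cxcl8a is ENSDARG00000104795, tnfa is ENSDARG00000009511, il6 is ENSDARG00000102318 and cxcl18b is ENSDARG00000075045. The study graded neutrophil maturation in adult zebrafish kidney marrow, the main site of blood formation in this fish, using reporters for lysozyme C (LysC, gene lyz) and matrix metalloproteinase 9 (Mmp9, gene mmp9). A sorted library held LysC+ neutrophils taken through gates without, with intermediate and with high Mmp9 reporter signal and sequenced together, and a WKM library held whole kidney marrow from which dead cells, debris and cell aggregates were gated out, with no reporter gate. Both came from the same 2 male fish, 6 months old, of the line Tg(lysC:CFPNTR)/Tg(BACmmp9:Citrine-CAAX)vi003, whose lysC allele is called vi004 where the single-cell fish are described and vi002 elsewhere in the study, with no infection, wound or drug treatment. The oligonucleotide tags that marked fish and gate were not used here, so that each library is 1 sample of pooled fish, and the mix of maturation stages in the sorted library was set by the sort.

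Interleukin 1β is made as an inactive precursor after innate sensing and is cleaved by inflammatory caspases before it acts on its receptor. Tumor necrosis factor has 2 zebrafish genes, tnfa and tnfb, whose products signal through TNF receptors to NF-kB, and tnfsf18 encodes a further ligand of the same superfamily, known in mammals as the ligand of the receptor GITR. Interleukin 6 acts through il6r and STAT3, with Socs3 as a feedback inhibitor. Cxcl8a and Cxcl18b are chemokines that attract neutrophils in zebrafish. Neutrophils carry lysozyme and proteases in granules made at successive steps of maturation, with Mmp9 in the late ones. The cells were therefore ordered here on 2 measured scales, the share of a barcode's UMIs (unique molecular identifiers, each standing for 1 captured RNA molecule) that came from lyz, and its mmp9 UMIs.

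The sorted library gave 15102 cell barcodes after filtering, of 17846 deposited, with 49531298 UMIs and a median of 2236 UMIs per barcode. The WKM library gave 8191 of 10688, with 40709152 UMIs and a median of 3357. The kept barcodes of the 2 libraries had 41 barcode sequences in common. The sorted label held: lyz, mpx (myeloperoxidase) and npsn (nephrosin) were detected in 99.9%, 96.9% and 98.1% of sorted barcodes, against 93.5%, 66.5% and 71.4% of WKM barcodes, and mmp9 in 48.0% of sorted against 11.4% of WKM barcodes. Of the sorted barcodes, 1 was gated by marker genes as erythroid-like, 2 as hematopoietic stem or progenitor (HSPC)-like, 8 as more than 1 class and 121 as none, so this library has no other cell type from which a free-RNA background can be read. With 1 library per condition nothing was tested. Levels are counts of a gene's UMIs scaled to 1e+06 UMIs of a population (CPM), intervals are exact at 95% and cover counting error only, cells are not replicates, and a lower level in a population cannot be told apart from fewer cells expressing the gene except through the shares given beside it. Shares of barcodes with a UMI were computed after drawing 1000 UMIs from every barcode, unless given as unthinned. Some shares used all UMIs and are not matched for depth. These were marker shares of libraries and classes, and splits of the T or NK-like class by marker. Shares within the monocyte or macrophage-like class by a member, and among cxcl8a or tnfa barcodes, were further ones.

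In the sorted library 3 of the 7 genes were broadly detected. Il1b had 60533 UMIs in 10118 barcodes (67.0% unthinned and 52.5% at equal depth). Detected barcodes held a median of 4 il1b UMIs and at most 56, and the tenth with the most held 33.3% of all il1b UMIs. Tnfb had 3063 UMIs in 1676 barcodes (11.098% unthinned, 6.65% at equal depth) and tnfsf18 had 2196 in 1645 (10.9% and 5.28%). For these a detected barcode mostly held 1 UMI, in 63.1% of cases for tnfb and 76.8% for tnfsf18, with maxima of 15 and 8. The other members were rare or absent: cxcl8a had 32 UMIs in 25 barcodes and il6 5 UMIs in 5 barcodes. Tnfa and cxcl18b had 0 UMIs in 15102 barcodes, which at 3 counts allows a share of barcodes with a UMI of up to 0.0199%, a limit on detection and not on cells that express the gene.

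Across the lyz scale the CPM of the 3 broadly detected genes was highest in barcodes with the least lyz. The 4 bands (under 2%, 2 to 5%, 5 to 10% and over 10% of UMIs from lyz) held 6578, 3045, 3714 and 1765 sorted barcodes. The il1b level was 2149 CPM (2123 to 2175) in the lowest band, 1481 (1456 to 1507) in the next, 1035 (1019 to 1052) in the third and 395 (384 to 406) in the highest. No neighboring pair of these intervals overlapped. The tnfb level was 167, 50.7, 30.7 and 5.86 CPM over the same bands, and the tnfsf18 level 124, 37.5, 16.96 and 4.88 CPM. The difference between the lowest and the highest band was larger for these than for il1b: il1b was 5.44-fold higher under 2% than over 10% lyz (log2 ratio 2.44, 2.40 to 2.49), tnfb 28.5-fold (4.83, 4.50 to 5.18) and tnfsf18 25.4-fold (4.67, 4.31 to 5.05). The median gene lay at 0.44 on this log2 scale, and 27.9% of the 10430 genes with at least 20 UMIs were 2-fold or more higher in the lowest band, so that being 2-fold higher was not particular to these 3 genes. Cxcl8a had 13 UMIs in the lowest band, 10 and 7 in the middle bands and 2 in the highest. These were 1.04, 1.15, 0.466 and 0.150 CPM, so that the lowest band was not the highest in level. The log2 ratio of the lowest to the highest band was 2.79 (0.65 to 5.98). The 5 il6 UMIs were all in the lowest band.

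**Figure D1:**
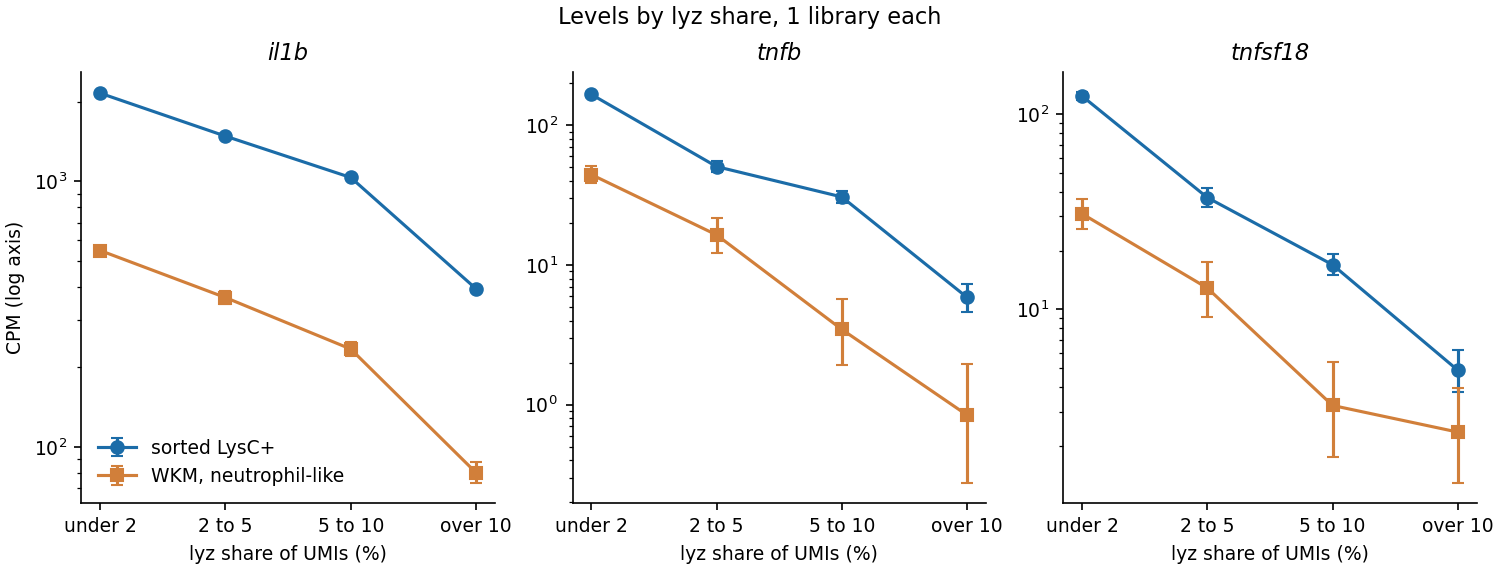
Level of il1b, tnfb and tnfsf18 in CPM (log axis) against the lyz share of a barcode's UMIs in 4 bands, in the sorted LysC+ library (blue circles) and in neutrophil-like barcodes of WKM (orange squares), 1 library each, with exact 95% Poisson intervals. Every line falls toward the band over 10%, il1b being at 2149 CPM under 2% and 395 CPM over 10% in the sorted library.

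For il1b the level and the share of barcodes ran differently. At equal depth il1b was detected in 56.7%, 55.1% and 57.1% of barcodes in the first 3 bands and in 23.5% of the highest band, whereas the CPM was lower in each successive band. No order among the first 3 bands was therefore read from the shares. Unthinned, the share was 65.6%, 68.6%, 74.9% and 52.7%, along median depths of 1667, 2478, 3257 and 7072 UMIs per barcode. Barcodes with il1b held an unthinned median of 4 il1b UMIs in each of the first 3 bands and 3 in the highest. The part of depth in the order of the CPM was not tested. Tnfb was detected in 10.3%, 4.35%, 4.82% and 1.02% of barcodes at equal depth (15.2%, 8.604%, 9.48% and 3.34% unthinned), and tnfsf18 in 9.26%, 3.32%, 2.19% and 0.397% (16.6%, 8.604%, 6.35% and 3.23% unthinned). For both the highest band was the lowest in share as in level. Genes of other programs moved over the same bands: the summed level of 12 heat shock genes was 4927, 4128, 3952 and 3612 CPM, that of 18 immediate early genes 5470, 3549, 2858 and 2317 CPM, and that of 6 cell cycle genes 178, 572, 938 and 1026 CPM. Of the heat shock genes, hspa8 was at 3138 CPM in the lowest and 2775 CPM in the highest band. Hsp70l was at 404 and 97.6 CPM and hspa4b at 38.7 and 64.8 CPM. The part of these programs in the cytokine levels was not tested.

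In WKM the order over the bands depended on which cells were counted. Over all WKM barcodes il1b was at 117 CPM under 2% lyz, 342 at 2 to 5%, 220 at 5 to 10% and 78.9 over 10%, and the lowest band was here 1.49-fold above the highest (log2 ratio 0.57, 0.43 to 0.71). That band holds most other cell types of the marrow, 2148 of its 5020 barcodes being neutrophil-like. With 22% of all tested genes 2-fold or more higher, tnfb was one of these (log2 ratio 4.20, 385 against 5 UMIs) and tnfsf18 another (1.37). Restricted to neutrophil-like barcodes, defined as those with UMIs of at least 6 of 8 neutrophil marker genes (lyz and mmp9 among them) and without enough markers of another differentiated class, il1b was at 549.6, 366, 234 and 80.2 CPM. Tnfb was at 44.4, 16.4, 3.45 and 0.840 CPM and tnfsf18 at 30.9, 12.9, 3.22 and 2.35 CPM. The ratios of the lowest to the highest band were then 2.78 (2.63 to 2.92) for il1b, 5.72 (4.48 to 7.36) for tnfb and 3.72 (2.92 to 4.63) for tnfsf18 on the log2 scale, with a median gene at 0.47 and 25.4% of genes 2-fold or more higher. The tnfb ratio rests on 5 UMIs in the highest band. At equal depth il1b was detected in 23.3%, 17.3%, 12.8% and 6.92% of neutrophil-like barcodes, so that in WKM share and level had the same order.

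Within each lyz band all 3 genes were higher in sorted neutrophils than in neutrophil-like barcodes of WKM, from the same fish. Il1b was at 2166 CPM in sorted against 549.6 CPM in WKM barcodes under 2% lyz, and at 395 against 80.2 CPM over 10%. The log2 ratios over the 4 bands were 1.98, 2.02, 2.15 and 2.30 for il1b, 1.91, 1.63, 3.16 and 2.81 for tnfb, and 2.01, 1.54, 2.40 and 1.06 for tnfsf18, each at 2-fold or more, where 7.35%, 6.81%, 6.43% and 5.94% of genes were 2-fold or more higher. Over 10% lyz the WKM side held only 5 tnfb and 14 tnfsf18 UMIs. The tnfsf18 ratio there, just past 2-fold, thus rests on few counts. Heat shock genes summed to 4956, 4131, 3952 and 3612 CPM in sorted neutrophil-like barcodes, against 1788, 1795, 1924 and 2019 CPM in WKM. Single genes of this sum differed unequally under 2% lyz. Hspa8, the most abundant, was at 3150 against 1650 CPM, hsp70l at 408 against 11.4 CPM and hspa4b at 38.8 against 46.5 CPM. Immediate early genes summed to 5479, 3545, 2858 and 2316 CPM in sorted barcodes, against 2853, 1813, 1186 and 863 CPM in WKM. Some markers of the neutrophil gate were also common outside it in WKM. Unthinned, lyz was in 99.7% of neutrophil-like and 83.1% of other barcodes. The gate marker lect2l was in 100% and 73.4%, npsn in 97.7% and 28.0%, and mpx in 95.8% and 18.1%. Other cells may therefore be among the neutrophil-like barcodes of WKM. The part of such cells, of both gene programs, of the gates and of the library itself in the difference was not tested. With 1 library each they cannot be told apart.

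Barcodes rich in mmp9, the gene of the late granule protease, also had more of the 3 cytokines. The 3675 sorted barcodes with at least 3 mmp9 UMIs had il1b at 2714 CPM, against 609.9 CPM in the 7849 with 0. Tnfb was at 172 against 21.1 CPM and tnfsf18 at 129 against 15.1 CPM. The 3578 barcodes with 1 to 2 mmp9 UMIs lay between these for each gene, at 1436 CPM of il1b, 65.1 CPM of tnfb and 40.3 CPM of tnfsf18. At least 3 against 0 mmp9 UMIs gave a log2 ratio of 2.15 (2.13 to 2.18, 4.45-fold) for il1b, 3.02 (2.89 to 3.16, 8.13-fold) for tnfb and 3.102 (2.95 to 3.26, 8.59-fold) for tnfsf18. The median gene was at 0.02 and 5.31% of 10858 genes were 2-fold or more higher. The shares at equal depth had the same order, il1b being detected in 81.0% of barcodes with at least 3 against 34.1% of those with 0 mmp9 UMIs (91.3% against 51.1% unthinned), tnfb in 13.97% against 3.02%, and tnfsf18 in 11.9% against 2.38%, with median depths of 2345 and 2341 UMIs. Cxcl8a had 16 UMIs with at least 3 and 11 with 0 mmp9 UMIs (log2 ratio 2.01), and il6 had 4 and 0. The heat shock sum was 5944 against 3577 CPM and the immediate early sum 4725 against 3027 CPM. Of the heat shock genes, hspa8 was at 3573 against 2752 CPM, hsp70l at 538 against 116 CPM and hspa4b at 46.8 against 55.0 CPM. The part of both programs was not tested.

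Since mmp9 and lyz run against each other (mmp9 was at 1622, 534, 275 and 38.5 CPM over the lyz bands), the mmp9 classes were also compared inside each band. With at least 3 against 0 mmp9 UMIs il1b was at 3424 against 883 CPM under 2% lyz, 2438 against 848 at 2 to 5%, 1740.3 against 677 at 5 to 10% and 692 against 350.2 over 10%. The log2 ratios were 1.96, 1.52, 1.36 and 0.98, which left il1b 2-fold or more higher in the first 3 bands, beside 6.11%, 2.81% and 2.11% of all genes, and just under 2-fold in the highest band, beside 5.82%. Tnfb had log2 ratios of 1.76, 2.52, 1.97 and 2.88, from 259 against 76.4 CPM in the lowest band and 32.4 against 4.41 CPM in the highest. Tnfsf18 had 2.02, 2.33, 1.26 and 1.65, from 205 against 50.4 CPM and 14.4 against 4.59 CPM. The highest band had 57 barcodes with at least 3 mmp9 UMIs, and the tnfsf18 ratio at 5 to 10% had an interval of 0.75 to 1.76 that reached under 2-fold. The share with il1b at equal depth was 81.1%, 82.2% and 83.1% in the first 3 bands of the mmp9-rich class, against 38.598%, 34.7% and 37.3% without mmp9, and 43.9% against 21.1% over 10% lyz. Over the same bands the heat shock sum was 7347 against 2706 CPM, 4867 against 3618 CPM, 4182 against 3858 CPM and 3451 against 3688 CPM, and its part in the mmp9 difference was not tested. The mmp9 classes were set on all UMIs and differed in depth inside the bands. Their median depths were 2223 against 1540, 3002 against 2278, 2421.5 against 4029 and 9375 against 7018 UMIs. The part of depth was not tested.

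**Figure D2:**
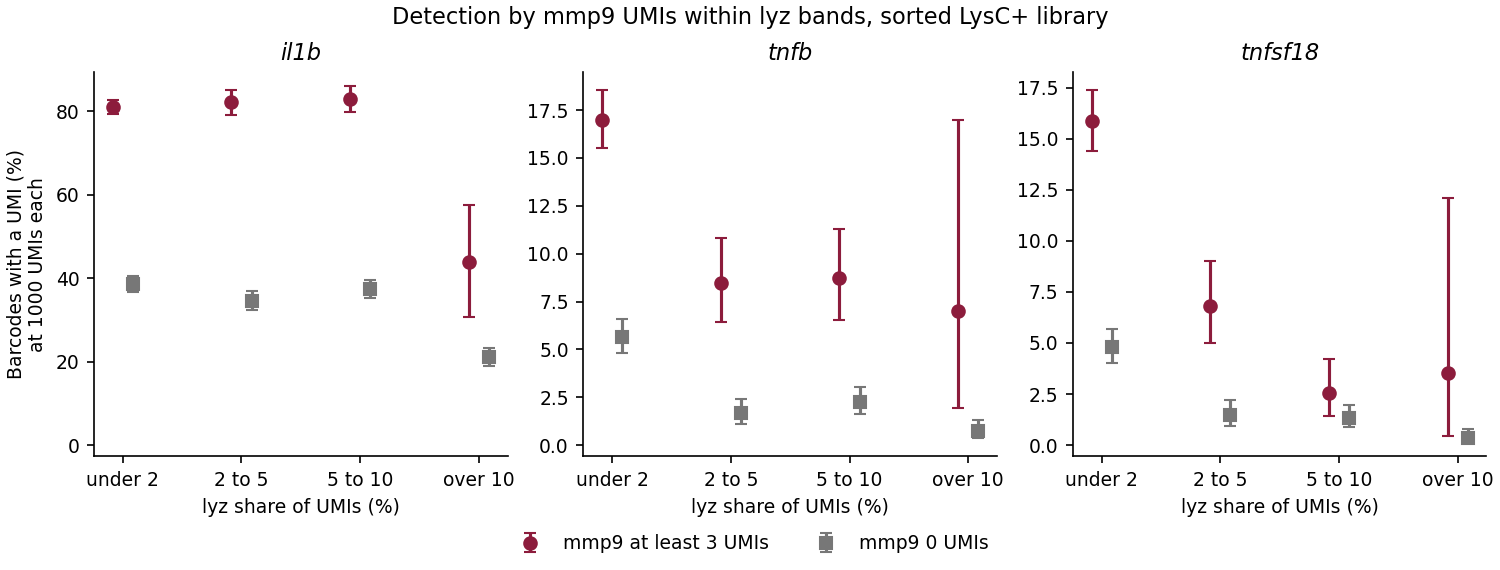
Share of sorted LysC+ barcodes with a UMI of il1b, tnfb or tnfsf18 at 1000 UMIs each, by lyz band and by mmp9 UMIs (at least 3, dark red circles, and 0, gray squares), with exact 95% binomial intervals. For il1b the mmp9-rich class sits above 80% in the first 3 bands, against under 40% without mmp9.

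Over all WKM barcodes, 330 with at least 3 and 7256 with 0 mmp9 UMIs, il1b was at 1269.5 against 86.9 CPM, tnfb at 101 against 7.48 CPM and tnfsf18 at 82.6 against 2.30 CPM. The log2 ratios were 3.87 (3.78 to 3.96), 3.76 (3.43 to 4.09) and 5.17 (4.72 to 5.62), where 15.7% of genes were 2-fold or more higher. Since the barcodes with 0 include the other cell types, the classes were also compared among neutrophil-like barcodes, a restriction chosen after the data were seen. The 312 barcodes with at least 3 mmp9 UMIs had il1b at 1393 CPM, against 172 CPM in the 4251 without, and il1b was detected in 54.2% against 12.2% at equal depth. Tnfb was at 117 against 6.33 CPM and tnfsf18 at 93.0 against 4.68 CPM. The log2 ratios were 3.02 (2.92 to 3.12), 4.21 (3.801 to 4.63) and 4.31 (3.84 to 4.79), where 10.8% of genes were 2-fold or more higher. Over all WKM barcodes cxcl8a had 1 UMI with at least 3 mmp9 UMIs and 212 with 0 (log2 ratio -2.59, -7.90 to -0.10), beside 20.9% of genes lower. Of its 215 UMIs in WKM, 171 were in monocyte or macrophage-like and 2 in neutrophil-like barcodes. No relation of cxcl8a to mmp9 among neutrophils was therefore read from this ratio. The summed levels of heat shock and immediate early genes were 2533 against 1849 CPM and 3024 against 1438 CPM in the neutrophil-like classes.

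Barcodes with 1 of the 3 cytokines more often held another. Among sorted barcodes at equal depth, tnfb was detected in 10.4% (9.74 to 11.0995) of those with il1b and in 2.49% (2.14 to 2.88) of those without. Tnfsf18 was detected in 7.77% of barcodes with and 2.52% of barcodes without il1b, and in 13.5% of barcodes with and 4.70% of barcodes without tnfb. In WKM the same 3 pairs gave 4.62% against 1.11%, 4.73% against 0.555% and 6.40% against 0.968%, and among neutrophil-like WKM barcodes 4.57% against 0.970%, 5.02% against 0.828% and 8.64% against 1.43%. Both libraries thus had the higher share on the side of the partner gene in each pair.

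Since all 3 genes varied with lyz and mmp9, the pairs were also read within these classes. Under 2% lyz the sorted shares were 15.0% against 4.11% for tnfb by il1b, 12.5% against 4.996% for tnfsf18 by il1b and 17.3% against 8.33% for tnfsf18 by tnfb. With mmp9 also held at 3 or more they were 18.9% against 8.72%, 16.99% against 10.96% and 21.9% against 14.6%. With mmp9 at 0 they were 9.99% against 2.90%, 6.63% against 3.68% and 10.5% against 4.48%. In each of these classes under 2% lyz the intervals of the paired shares did not overlap. At 2 to 5% lyz tnfsf18 was in 3.82% (1.25 to 8.68) of barcodes with and 3.30% (2.68 to 4.02) of barcodes without tnfb, a gap within the counting error. Barcodes with a member were also richer in stress genes: under 2% lyz the heat shock sum was 5797 CPM with and 2799 CPM without il1b, 6759 and 4537 CPM with and without tnfb, and 7461 and 4314 CPM with and without tnfsf18. Over 10% lyz it was 3394 CPM with and 3884 CPM without il1b. The part of heat shock in co-detection was not tested.

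Co-detection was graded with the amount of il1b. Sorted barcodes with 0, 1, 2 to 3, 4 to 7 and at least 8 il1b UMIs among 1000 had tnfb in 2.49%, 5.83%, 10.3%, 15.6% and 22.3% of cases. Tnfsf18 was in 2.52%, 4.98%, 7.40%, 11.7% and 14.2%, and mmp9 in 18.9%, 38.64%, 51.7%, 64.4% and 79.3%. Under 2% lyz with at least 3 mmp9 UMIs the tnfb shares were 8.72%, 11.4%, 19.1%, 21.4% and 23.8%, and with 0 mmp9 UMIs they were 2.90%, 5.30%, 10.5%, 22.1% and 32.3% (16.7 to 51.4 in the last class, of 31 barcodes). From 4 il1b UMIs up, the intervals of the 2 mmp9 classes overlapped for tnfb. Tnfsf18 was flatter, at 10.96%, 11.9%, 16.7%, 19.97% and 17.9% with mmp9 and 3.68%, 5.68%, 6.27%, 10.7% and 9.68% without. In neutrophil-like WKM barcodes with 0, 1, 2 to 3 and 4 to 7 il1b UMIs, tnfb was in 0.970%, 3.56%, 4.87% and 7.45% and tnfsf18 in 0.828%, 2.97%, 6.37% and 10.6%.

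**Figure D3:**
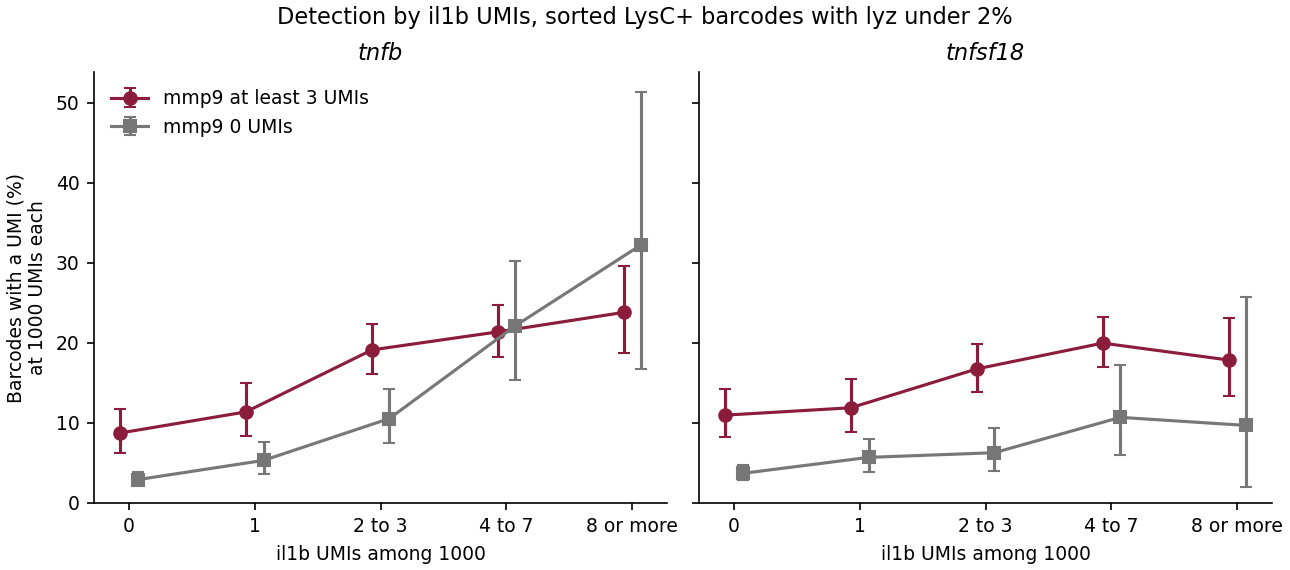
Share of sorted LysC+ barcodes under 2% lyz with a UMI of tnfb (left) or tnfsf18 (right), by il1b UMIs among 1000, for barcodes with at least 3 mmp9 UMIs (red circles) and with 0 (gray squares), with exact 95% binomial intervals. The tnfb share is 8.72% without il1b and 23.8% at 8 or more il1b UMIs in the mmp9-rich class, and 2.90% and 32.3% without mmp9.

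Barcodes with all 3 cytokines were few, 119 of 14981 sorted barcodes (0.794%), and 103 of them were under 2% lyz. In that band 79 of 2360 barcodes with at least 3 mmp9 UMIs held all 3 (3.35%), against 13 of 2697 with 0 mmp9 UMIs (0.482%). Of the sorted barcodes over 10% lyz, 0 of 1763 did. Il1b was found without the other 2 in 6560 sorted barcodes, tnfb alone in 162 and tnfsf18 alone in 164, and 45.2% of sorted barcodes had none of the 3. In WKM 7 of 8181 barcodes held all 3, and these 7 were neutrophil-like.

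Gating WKM by marker genes gave 5107 neutrophil-like, 496 monocyte or macrophage-like, 982 erythroid-like, 349 HSPC-like, 130 B cell-like, 74 T or NK-like, 33 thrombocyte-like and 8 kidney tubule-like barcodes, with 463 fitting more than 1 class and 549 fitting none. The gates fix that their own markers differ between classes, and the unthinned shares below only show which of them carried each class. C1qb (complement) was in 98.4% of monocyte or macrophage-like barcodes against 2.92% of the rest and mfap4 in 37.9% against 0.754%, and il2rb (an interleukin 2 receptor chain) was in 55.4% of T or NK-like barcodes against 0.493% and lck (a T cell kinase) in 27.0% against 0.308%. The receptor marco was in 4.84% of monocyte or macrophage-like barcodes, so that class is known mainly by its complement and granulin genes. Hemoglobin hbaa1 was in 100% of erythroid-like and in 100% of other barcodes, so that some RNA was found outside the cells that make it, and shares of cytokines in erythroid-like barcodes were taken as the background.

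Il1b was at 0.740 CPM in HSPC-like, 1.05 in erythroid-like, 2.41 in B cell-like, 11.2 in T or NK-like, 76.9 in monocyte or macrophage-like and 282 in neutrophil-like barcodes. The intervals of the 2 myeloid classes did not overlap with each other, and those of HSPC-like, erythroid-like and B cell-like barcodes did. The T or NK-like value rests on 2 UMIs, and its interval (1.36 to 40.5) also overlapped those of HSPC-like, erythroid-like and B cell-like barcodes. At equal depth il1b was detected in 0.204% of erythroid-like, 5.44% of monocyte or macrophage-like and 17.2% of neutrophil-like barcodes. Unthinned these shares were 0.916%, 19.96% and 27.0%, at median depths of 7566.5, 9712.5 and 2455 UMIs, so that the unthinned shares of the 2 myeloid classes come from unequal depths. The level in monocyte or macrophage-like over neutrophil-like barcodes was a log2 ratio of -1.88 (-2.03 to -1.73), where 17.2% of genes were 2-fold or more lower. This level is relative to the same unequal depths. Barcodes with il1b held an unthinned median of 2 il1b UMIs in both classes, and the part of depth in the ratio was not tested.

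Among the pooled classes of WKM, tnfb, a TNF paralog, was highest outside the myeloid classes. The T or NK-like interval was 198 to 356 CPM. Sorted barcodes under 2% lyz with at least 3 mmp9 UMIs lay within it. Across libraries a level this high was thus not particular to this class, but the sorted library had more tnfb in each lyz band than neutrophil-like WKM barcodes. Within WKM, neutrophil-like barcodes under 2% lyz were lower, at 44.4 CPM (38.4 to 51.2). Those with at least 3 mmp9 UMIs also lay under the T or NK-like interval. Tnfb was at 268.9 CPM in T or NK-like barcodes (24 of 74 with a UMI, 48 UMIs), against 14.8 CPM in neutrophil-like barcodes (262 UMIs). This was 18.2-fold (log2 ratio 4.18, 3.71 to 4.63), where 19.6% of genes were 2-fold or more higher, in a comparison that rests on 74 barcodes. At equal depth it was detected in 23.0% of T or NK-like, 1.21% of monocyte or macrophage-like and 1.59% of neutrophil-like barcodes, and in 0% of erythroid-like barcodes. The monocyte or macrophage-like level, 14.5 CPM, differed from the neutrophil-like level by a log2 ratio of -0.03 (-0.42 to 0.35). Within the T or NK-like class tnfb was found in 10 of 17 barcodes with nkl.3, an NK-lysin gene, and in 14 of 57 without (58.8%, 32.9 to 81.6, against 24.6%, 14.1 to 37.8), and in 5 of 20 with lck against 19 of 54 without (25% against 35.19%). Of the other gate markers, nkl.4 gave 50% with against 22.9% without, zap70 33.3% against 32.1% and il2rb 26.8% against 39.4%. Runx3 gave 25% against 37.0% and gzm3 25% against 33.3%. Cd4-1, cd8a and cd247l were in too few barcodes to be read. These splits by marker are unthinned. Each of the pairs given had overlapping intervals, so no marker was read as setting tnfb apart within this class. Il1b had 2 UMIs in this class (log2 ratio over neutrophil-like -4.65), where 34.1% of genes were 2-fold or more lower, genes with 0 UMIs in this small class among them.

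Tnfsf18 had 0 UMIs in monocyte or macrophage-like barcodes, 1 UMI in T or NK-like (5.60 CPM, 0.14 to 31.2) and 1 in B cell-like barcodes (2.41 CPM, 0.061 to 13.4), against 201 UMIs (11.4 CPM, 9.84 to 13.04) in neutrophil-like barcodes. The depth of the small lymphoid classes thus does not place them above or below neutrophils for this gene. For cxcl8a, monocyte or macrophage-like barcodes held 171 of its 215 WKM UMIs (33.6 CPM), against 2 UMIs in neutrophil-like barcodes (0.113 CPM), a log2 ratio of 8.22 (6.34 to 11.3), where 16.9% of genes were 2-fold or more higher. It was detected in 45 of the 496 monocyte or macrophage-like barcodes (9.07% unthinned, 2.02% at equal depth) and in 0 of 982 erythroid-like barcodes.

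**Figure D4:**
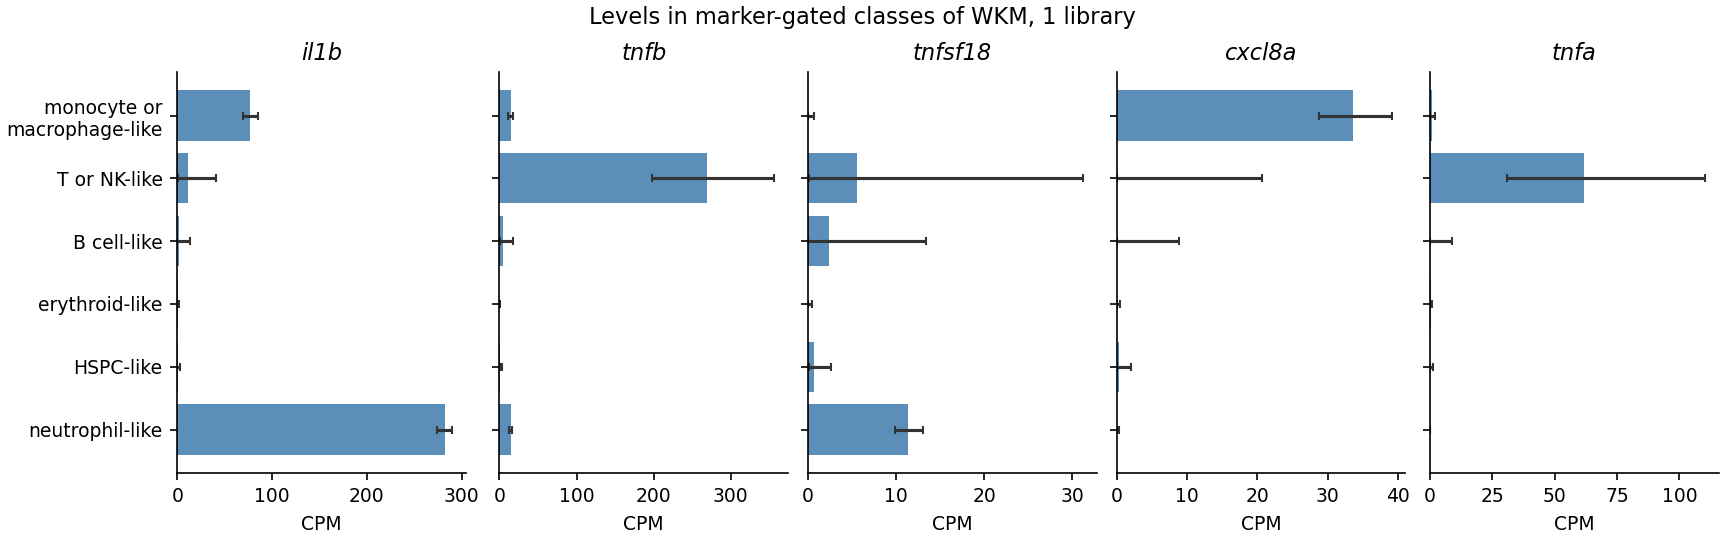
Level of il1b, tnfb, tnfsf18, cxcl8a and tnfa in CPM (each panel on its own scale) in 6 marker-gated classes of the WKM library, with exact 95% Poisson intervals. Il1b (282 CPM) has its longest bar in the neutrophil-like class, as has tnfsf18, whose T or NK-like interval spans the neutrophil-like level, cxcl8a (33.6 CPM) in the monocyte or macrophage-like class, and tnfb (268.9 CPM) and tnfa (61.6 CPM) in the T or NK-like class, whose intervals are wide.

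The cxcl8a barcodes of WKM were also tallied by their markers. Of 57, 55 were under 2% lyz, 51 had at least 3 monocyte or macrophage markers, 52 had c1qb and 54 had cd74a, the class II invariant chain, and the largest count was 16 UMIs. The marker and c1qb counts largely restate the class gate, whereas cd74a is no gate marker. The 25 cxcl8a barcodes of the sorted library held at most 3 UMIs and were all neutrophil-like. So were 14970 of the 15102 barcodes of that library, which leaves little room for another class, and no contrast with WKM is read from it. Unthinned, 24 of the 25 had il1b (96%, against 66.9% of the rest) and 8 had tnfb. The part of depth in these shares was not tested. Within the monocyte or macrophage-like class, unthinned, barcodes with cxcl8a had a higher share of il1b than those without (35.6% against 18.4%), of the chemokine ccl34a.4 (57.8% against 31.3%) and of csf3b, a granulocyte colony-stimulating factor gene (17.8% against 3.104%). They had a lower share of the second cxcl8 gene, cxcl8b.1 (5 of 45 barcodes, against 26.2%). Their median depth was 14008 UMIs, against 9383 without cxcl8a, and its part in these shares was not tested. In the same class tnfb was in 19 of 99 barcodes with il1b and in 25 of 397 without (19.2% against 6.30%).

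Tnfa was confined in WKM to 19 barcodes with 49 UMIs, each under 2% lyz and none of them neutrophil-like. By class 5 were T or NK-like (11 UMIs, 61.6 CPM, 30.8 to 110.2), 4 monocyte or macrophage-like, 2 erythroid-like and 8 without a class. Unthinned, cd74a was in 17 of the 19 (89.5%, against 20.2% of the rest) and flt3, a receptor of dendritic and progenitor cells, in 6 (31.6% against 0.551%). The monocyte or macrophage marker mpeg1.1 was also in 6 (31.6% against 1.57%) and the T or NK marker nkl.4 in 4 (21.1% against 0.575%). No single cell type was read from these genes. Tnfb was in 8 of them (42.1% against 2.96%). A single barcode without a class held 23 tnfa UMIs, 46.9% of the total, so that the summed level rests on that barcode. Il6 had 1 UMI, in a monocyte or macrophage-like barcode, and cxcl18b had 0 UMIs in 8191 WKM barcodes, which at 3 counts allows a share of barcodes with a UMI of up to 0.0366%.

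The wider pathway was read from 5 lists, of other cytokines, other chemokines, receptors and their adaptors, IL-1 processing genes, and NF-kB factors and targets. In the sorted library 34 of the 49 listed genes with at least 20 UMIs were 2-fold or more higher under 2% than over 10% lyz, and 1 (nfkbib) was 2-fold or more lower, beside 27.9% of all genes higher and 12.2% lower. By list these were 7 of 10 cytokines, 1 of 2 chemokines, 11 of 13 receptors and adaptors, 1 of 5 IL-1 processing genes and 14 of 19 NF-kB genes, with median log2 ratios of 1.76, 3.33, 1.68, 0.84 and 1.35 beside 0.44 over all genes. Feedback inhibitors of the cytokine pathways were among the most abundant: nfkbiab, an inhibitor of NF-kB, was at 2717 CPM under 2% and 744 CPM over 10% lyz, and socs3a at 1869 and 231 CPM. Of the receptors, il6r was at 1821 and 423 CPM, the chemokine receptor cxcr1 at 252 and 3.98 CPM (log2 ratio 5.99), and tnfrsf1a at 183 and 62.8 CPM. Irak3, an inhibitor of IL-1 receptor signaling, was at 78.5 and 20.3 CPM. Of the processing genes, gsdmea, a pore-forming gasdermin, was at 12.98 and 0.751 CPM. The other 4 were within 2-fold, with log2 ratios from -0.76 (pycard) to 0.95 (casp3b): caspa, an inflammatory caspase, was at 75.0 and 55.6 CPM and pycard, the inflammasome adaptor, at 56.6 and 95.6 CPM. Colony-stimulating factor csf3b was at 5.77 and 0.300 CPM.

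By mmp9, 21 of 51 pathway genes were 2-fold or more higher with at least 3 mmp9 UMIs and 0 lower, beside 5.31% of all genes higher and 5.51% lower. These were 4 of 10 cytokines, 1 of 3 chemokines, 5 of 13 receptors and adaptors, 1 of 5 processing genes and 10 of 20 NF-kB genes, with median log2 ratios of 0.78, 0.99, 0.90, 0.08 and 1.003 beside 0.02. Nfkbiab was at 2603 against 1123 CPM, socs3a at 1854 against 499 CPM, cxcr1 at 144 against 43.6 CPM and irak3 at 79.5 against 28.4 CPM. Inside the band under 2% lyz 4 of 9 cytokines, 1 of 12 receptors and adaptors and 6 of 18 NF-kB genes were 2-fold or more higher, beside 6.11% of all genes. Inside the band of 5 to 10% 0 of 18 NF-kB genes were, beside 2.11% of all genes, a share at which 0 of 18 is near the background. Il1b, tnfb and tnfsf18 were each 2-fold or more higher in both of these bands. In neutrophil-like WKM barcodes 28 of 40 pathway genes were 2-fold or more higher under 2% than over 10% lyz, beside 25.4% of all genes, with socs3a at 1253 and 120.5 CPM, il6r at 956 and 294 CPM and cxcr1 at 112 and 1.51 CPM.

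Chemokines of the list were also compared between cell classes. In monocyte or macrophage-like over neutrophil-like barcodes 5 of 8 chemokines were 2-fold or more higher and 2 lower, beside 16.9% of all genes higher and 17.2% lower, with ccl34a.4 at 116 against 0.226 CPM, cxcl8b.1 at 207 against 3 UMIs and ccl39.3 at 21.4 against 0.678 CPM. Of the receptor list, il6r was lower in this class, at 69.6 against 498 CPM, as was cxcr1, at 1 against 522 UMIs. No count over that list is given here, so these genes do not stand for it. In T or NK-like over neutrophil-like barcodes 5 of 6 chemokines were 2-fold or more higher and 1 lower, beside 19.6% of all genes higher and 34.1% lower, led by ccl34b.4 at 924 against 4.58 CPM and ccl36.1 at 711 against 3.62 CPM. The 1 lower was cxcl11.1, at 0 against 26 UMIs. Its interval reached up to 3.92 on the log2 scale, so that no lower level can be read. Genes with 0 UMIs in this small class also enter the 34.1%.

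The genes most like each member were taken by the correlation of log2(CPM + 1) over 18 populations, 12 of the sorted library by lyz band and mmp9 class and 6 WKM classes, among 10287 genes. The populations share 2 libraries and 2 grading genes, so that the correlations are descriptions. Il1b was nearest to scarb2a (r = 0.991), thy1 (0.987) and socs3b (0.985), the last of which encodes a cytokine feedback inhibitor. Tnfb was nearest to csnk1g2b (0.969), sin3ab (0.937) and tnip2 (0.937), a TNFAIP3-interacting inhibitor of NF-kB in mammals, and tnfsf18 to gmeb1 (0.955), sema4e (0.954) and susd6 (0.943). Cxcl8a was nearest to ifitm1 (0.933), cxcl8b.1 (0.932) and clul1 (0.920). On this scale cxcl8a was at 5.11 in monocyte or macrophage-like barcodes and at most 1.59 in any other population. Its correlations over the 18 thus rest mainly on that class. Over the 12 sorted populations alone the members correlated with each other at r = 0.975 for tnfb and tnfsf18, 0.910 for il1b and tnfb and 0.894 for il1b and tnfsf18. Over all 18 populations these were 0.807, 0.646 and 0.815. Cxcl8a correlated with these members at 0.512 to 0.528 over the 12 and at -0.121 to 0.139 over the 18. The values over the 12 rest on 32 cxcl8a UMIs. Of the nearest genes named, only socs3b was again among the nearest 3 over the 12 sorted populations.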

How the data were processed

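Single-cell RNA-seq (10x Genomics 3′ chemistry) of 2 libraries was analyzed. The deposited matrices hold raw UMI counts per gene and barcode, which the authors made with Cell Ranger 3.1.0 against GRCz11, and the submitters' processing notes also name Seurat 4.0.2. Barcodes with at least 500 features and under 10% mitochondrial UMIs were kept, and Scrublet (in scanpy 1.11.5, expected rate 10%) removed 1797 sorted (10.6%) and 122 WKM (1.47%) barcodes as doublets. Cell classes were gated by the number of marker genes with a UMI, 6 of 8 for neutrophils, 3 of 11 for monocytes or macrophages, 2 of 10 for T or NK cells, 2 of 7 for B cells, 7 of 8 for erythroid cells and 2 of 7 for HSPC. These minimums were set after the marker counts were seen.

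Counts were summed over the barcodes of a population and divided by their total to give CPM with exact Poisson intervals. Shares carry Clopper-Pearson intervals and ratios those of the exact binomial split of both counts, all at 95%. The 121 sorted and 10 WKM barcodes under 1000 UMIs were left out of thinned shares. A gene was counted as differing at 2-fold or more if it had at least 20 UMIs over both populations. On data simulated under a Poisson model for the lyz and mmp9 comparisons of the sorted library, 95.5% and 97.5% of the intervals of 200 changed genes held the true ratio, among 10430 and 10858 genes. Cell-to-cell variation is not covered by that model.

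The 7 genes and the pathway, stress and marker lists were chosen with earlier results of these data known. Beside the members, genes named were the up to 5 of a list with the most UMIs in the sorted library among those past 2-fold, the 3 genes most like a member with at least 100 UMIs, and gate markers. Hspa8, hspa4b, nfkbib, caspa, casp3b, pycard, csf3b, cd74a, flt3, ccl34a.4 and cxcl8b.1 within cells that hold a member, and the chemokines named by class, were singled out after their values were seen. Python 3.11.15, numpy 2.4.6, scipy 1.17.1, pandas 2.3.3 and matplotlib 3.10.9 were used. The alternatives tried were other limits on barcodes, doublets, depth, totals, mmp9 classes, gates and low counts.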

Additional observations from a re-analysis of the deposited data

Results flagged for a closer look

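Members were also found in barcodes that failed the limits on features or mitochondrial share and entered no comparison above. In the 947 such sorted barcodes il1b was at 1234 CPM, tnfb at 82.9 CPM and tnfsf18 at 60.7 CPM, each above the 4.44 CPM that 3 UMIs would give there. In the 2375 such WKM barcodes il1b was at 9.89 CPM, tnfb at 11.3 CPM and tnfa at 2.65 CPM, above the 0.724 CPM that 3 UMIs would give. Among barcodes removed as doublets il1b was at 1362 CPM in the sorted library and 198 CPM in WKM.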

How the results depend on the processing

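No paired analysis was possible because each condition is 1 library and the tags for fish were not used. Of 149 alternatives to the principal values 69 stayed within a set limit and 80 moved beyond it. That limit was the counting error, except for counts of pathway genes, which were judged by the size of their change. A turn of direction was looked for only in log2 ratios and co-detection gaps, and 0 of these turned. For tnfb the shares of the myeloid classes depended on thinning. At equal depth tnfb was in 1.21% (0.445 to 2.61) of monocyte or macrophage-like and 1.59% (1.26 to 1.97) of neutrophil-like barcodes. These intervals overlapped, so that no order was read. Without thinning the shares were 8.87% and 2.70%, at median depths of 9712.5 and 2455 UMIs. Values below give log2 ratios in the order il1b, tnfb, tnfsf18 unless named, and the cause of a move was not tested unless the alternative itself sets it. Keeping called doublets gave 2.32, 4.14 and 4.24 for lyz under 2% over lyz over 10% in the sorted library, 1.97, 2.79 and 2.84 for mmp9 at least 3 over 0, 3.77 for il1b by mmp9 in WKM, and a tnfsf18 share 2.91 points higher in WKM barcodes with il1b than without. A minimum of 800 features gave il1b 2.82 (sorted) and 3.38 (WKM neutrophil-like) by lyz, 69.4% of sorted barcodes under 2% lyz with il1b, and 2.29, 3.66 and 3.64 by mmp9 (sorted). Leaving lyz out of the total gave il1b 2.26 (sorted), 0.36 (WKM) and 2.58 (WKM neutrophil-like) by lyz, 26.6% of sorted barcodes over 10% lyz, and 2.08 by mmp9. At 500 UMIs, where fewer molecules are drawn, il1b was detected in 43.0% under 2% and 14.7% over 10% lyz (sorted) and in 7.91% and 4.14% (WKM). The co-detection gaps were then 4.58 (tnfb by il1b), 2.82 (tnfsf18 by il1b) and 5.98 points (tnfsf18 by tnfb) in the sorted library, and 2.09 (tnfb by il1b) and 0.854 points (tnfsf18 by tnfb) in WKM. Without thinning the il1b shares were 65.6% and 52.7% (sorted) and 17.5% and 16.0% (WKM), the gaps 12.2, 10.1 and 14.7 points (sorted) and 6.61 points for tnfsf18 by il1b (WKM), and the class shares 19.96% of monocyte or macrophage-like and 27.0% of neutrophil-like barcodes for il1b, 8.87% and 2.70% for tnfb, and 9.07% of monocyte or macrophage-like barcodes for cxcl8a. Counting mmp9 in thinned UMIs gave 1.70, 2.46 and 2.60 (sorted) and 3.47, 3.39 and 4.68 (WKM), and at least 1 mmp9 UMI in place of 3 gave 1.78, 2.50 and 2.51 (sorted) and 3.20, 2.88 and 4.20 (WKM).

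By mmp9 within lyz bands the sorted ratios were 1.96, 1.76 and 2.02 under 2%, 1.52, 2.52 and 2.33 at 2 to 5%, 1.36, 1.97 and 1.26 at 5 to 10%, and 0.98, 2.88 and 1.65 over 10%, and those of WKM 4.85 for il1b and 5.86 for tnfsf18 under 2%, 1.58, 1.75 and 2.37 at 2 to 5%, and for il1b 2.12 at 5 to 10% and 1.93 over 10%. The gaps under 2% lyz were 10.9 points (tnfb by il1b) and 7.52 points (tnfsf18 by il1b) in the sorted library and 5.22 points (tnfb by il1b) in WKM. One more marker per class gave il1b in 18.7% of neutrophil-like barcodes, and a minimum of 100 UMIs, which tests fewer genes, left 16 WKM neutrophil-like pathway genes higher by lyz in place of 28. Neutrophil-like barcodes alone, an alternative chosen after seeing the data, gave 3.02, 4.21 and 4.31 by mmp9 in WKM. With 1 library per condition, the spread between fish is unknown. T or NK-like values rest on 74 barcodes and tnfa on 49 UMIs, and neutrophil-like barcodes were gated with lyz and mmp9 among their markers.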
